A study of Homo sapiens with 12 samples.

Results

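The 10 genes described here encode regulators of epithelial identity: the ETS transcription factors ELF3 and EHF, the grainyhead-like factors GRHL1, GRHL2 and GRHL3, the zinc-finger factors OVOL1 and KLF5, the epithelial splicing regulators ESRP1 and ESRP2, and the small GTPase RAB25. They were picked by gene symbol, and all 10 were found among the 59427 symbols of the table. All 10 also reached at least 1 TPM, the unit of the table, a length-corrected share of all transcripts, in at least 1 line, as did 13108 genes in all, which are called the tested genes below. Their levels were read in 4 human breast epithelial lines of the MCF10 series by bulk RNA-seq of total RNA, with 3 libraries per line and 12 in all. MCF10A is an immortalised, non-tumorigenic line and carries no introduced oncogene. MCF10AT1 is the line transformed with HRAS G12V, MCF10DCIS models ductal carcinoma in situ, and MCF10CA1a is the metastatic line. By the known history of the series, MCF10DCIS and MCF10CA1a go back to HRAS-transformed MCF10 cells passaged as xenografts, so the activated HRAS is shared by the 3 derived lines. Culture conditions did not differ between lines by the labels: the medium held hydrocortisone, cholera toxin, EGF, insulin and horse serum.

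Each stage is represented by 1 line, so a property of the stage and a property of that line cannot be told apart. The value of a gene in a line is the authors' mean over its libraries. It has no SD, no difference below has a p-value or an interval, and whether a difference exceeds the spread of the libraries is unknown. Depth is unknown, because TPM keeps no read count. Differences are log2(TPM + 1) in the first line minus the second, and a gene is called higher or lower when this is at least 1 in size, a 2-fold difference of TPM + 1. In bulk RNA, fewer cells expressing a gene and less of its RNA per cell cannot be told apart.

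These regulators form a connected network in glandular and stratified epithelia. ELF3, EHF, KLF5 and the grainyhead-like factors bind enhancers of junction, polarity and membrane protease genes and hold them active, and OVOL factors and GRHL2 repress the genes of the ZEB factors, which in turn repress epithelial genes. ESRP1 and ESRP2 bind RNA and select epithelial exons in transcripts such as those of FGFR2, CD44 and CTNND1, and RAB25 directs recycling endosomes toward the apical membrane and integrins to the cell surface. Loss of these genes is a known companion of epithelial-mesenchymal transition (EMT), the change in which epithelial cells give up junctions and take on mesenchymal genes.

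MCF10AT1 had the lowest level of most of these genes. It was the lowest of the 4 lines for 8 of the 10 (ELF3, EHF, GRHL1, GRHL2, OVOL1, ESRP1, ESRP2 and RAB25), whereas it was the lowest line for 15.5% of the tested genes. MCF10DCIS was lowest for GRHL3 and KLF5, 2 of 10, against 57.3% of the tested genes. With quantile normalization or median-of-ratios scaling, GRHL3 too was lowest in MCF10AT1, which made 9 of 10. MCF10A was highest for 6 of the 10, beside 40.3% of the tested genes, and MCF10CA1a for 3 (EHF, GRHL1 and GRHL3), beside 28.7%. The summed level of the set was 490.4 TPM in MCF10A, 94.4 TPM in MCF10AT1, 205 TPM in MCF10DCIS and 270.4 TPM in MCF10CA1a. The median range of a regulator over the lines was 1.69 log2 units, and that of a tested gene 0.74.

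**Figure D1:**
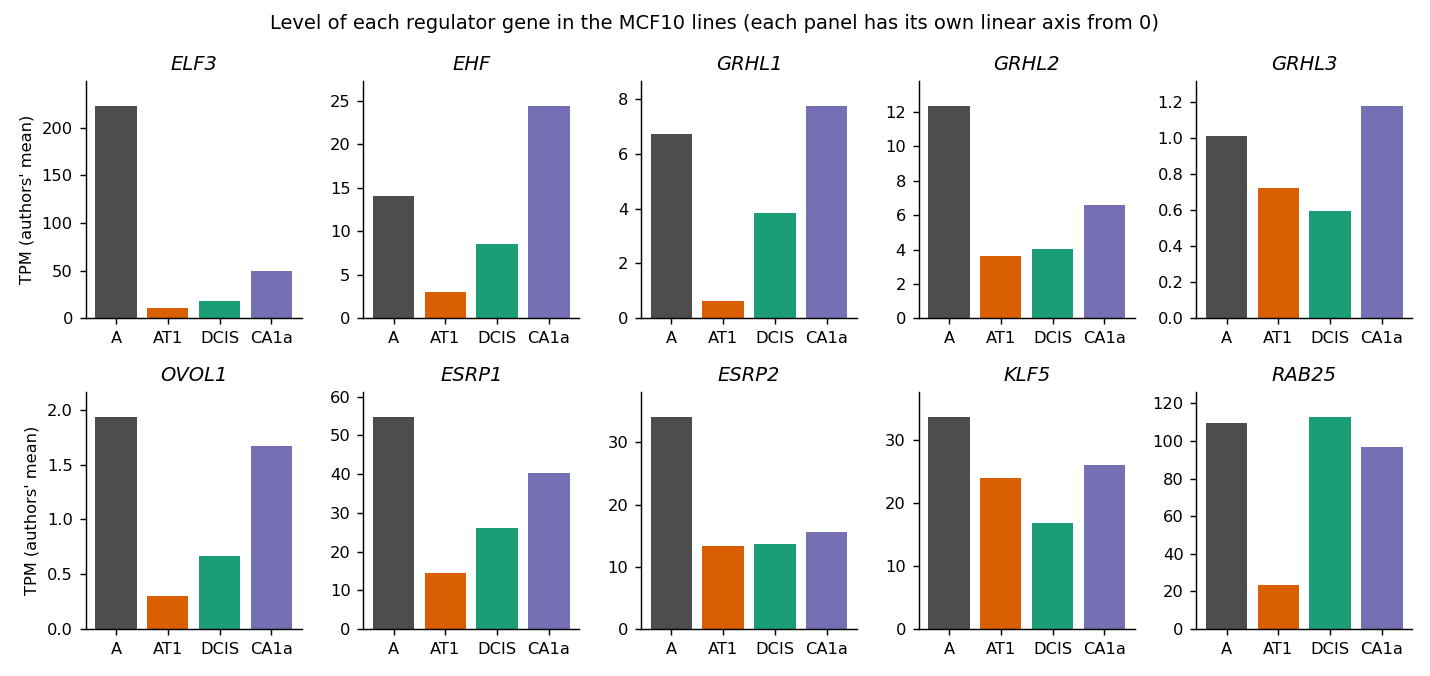
Level of each regulator gene in MCF10A, MCF10AT1, MCF10DCIS and MCF10CA1a, as bars of the authors' mean TPM on a linear axis that starts at 0 and differs between panels; there are no error bars because only means were analysed. The bar of MCF10AT1 is the shortest in 8 panels, and RAB25 alone has its tallest bar in MCF10DCIS, at 113 TPM.

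Against MCF10A, 8 of 10 members were lower in MCF10AT1 and 0 higher, where, as background, 5.87% of the tested genes were lower and 3.39% higher. The median difference of the set was -1.69, beside -0.066 for all tested genes. In MCF10DCIS 4 of 10 were lower (ELF3, GRHL2, ESRP1 and ESRP2) and 0 higher, beside 14.8% and 3.56% of the tested genes, with a median of -0.89 beside -0.38. In MCF10CA1a 2 of 10 were lower (ELF3 and ESRP2) and 0 higher, beside 7.14% and 5.97%, with a median of -0.27 beside -0.074. These 3 comparisons share the MCF10A libraries. The counts of MCF10DCIS and MCF10CA1a depend on the scale. Rescaled TPM sums to 1000000 after leaving out 3 gene classes: structural or small non-coding RNA, ribosomal proteins, and genes of the mitochondrial genome. On it 8 of 10 were lower in MCF10AT1, but 2 in MCF10DCIS (ELF3 and GRHL2) and 1 in MCF10CA1a (ELF3), and again 0 were higher. The rescaling moved the median of all tested genes in MCF10DCIS from -0.38 to -0.095, and the shares of tested genes called lower in the 3 lines to 6.65%, 10.4% and 7.79% and called higher to 5.8%, 7.83% and 9.45%. It also makes the values of the kept genes larger, so the pseudocount of 1 weighs less on low levels.

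**Figure D2:**
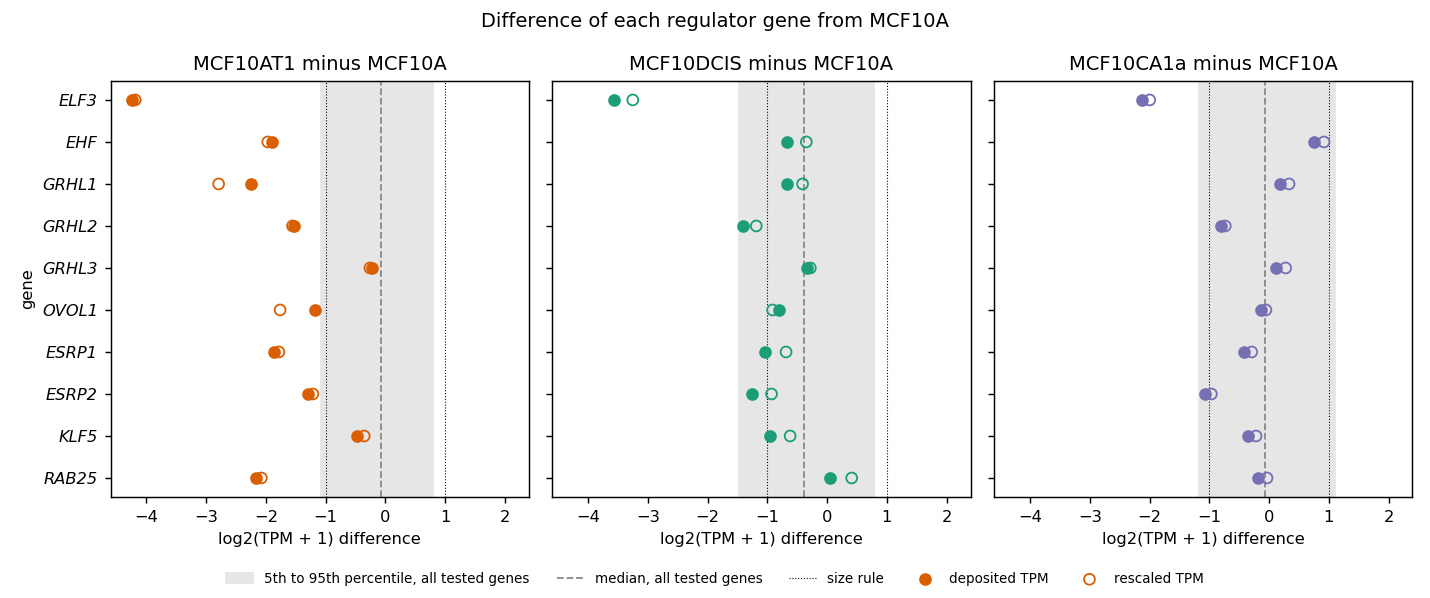
Difference of each regulator gene from MCF10A on the log2(TPM + 1) scale, one panel per derived line, with filled points for deposited TPM and open points for rescaled TPM. The grey band spans the 5th to 95th percentile of the tested genes, the dashed line is their median and the dotted lines mark a size of 1; ELF3 lies left of the band in all 3 panels, at -4.23, -3.57 and -2.13.

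ELF3 and EHF are ETS factors of secretory and surface epithelia with closely related DNA-binding domains. ELF3 (chr1:202007945-202017188, plus strand, GRCh38 in GENCODE release 29, as for the positions that follow) was 222 TPM in MCF10A, 10.9 TPM in MCF10AT1, 17.8 TPM in MCF10DCIS and 50.1 TPM in MCF10CA1a. In MCF10A it was the most abundant gene of the set, at or above 97.8% of the tested genes, and in MCF10AT1 at or above 60.5%. The ratio of TPM between MCF10A and the derived lines was 20.5 for MCF10AT1, 12.5 for MCF10DCIS and 4.44 for MCF10CA1a, and ELF3 was called lower in all 3 on each scale tried. Among the tested genes, 0.137% had a difference as low or lower in MCF10AT1.

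EHF (chr11:34621093-34661057) did not share this order of lines. Its level was 14.1 TPM in MCF10A, 3.06 TPM in MCF10AT1, 8.50 TPM in MCF10DCIS and 24.4 TPM in MCF10CA1a, so that the metastatic line stood highest. The difference from MCF10A was -1.89 in MCF10AT1, called lower, -0.67 in MCF10DCIS and 0.75 in MCF10CA1a, both short of the rule. From MCF10AT1 to MCF10CA1a EHF was higher by 2.64. A ratio of 2 genes within a line is not changed by a scaling factor for that line, though quantile normalization can change it. With deposited TPM, ELF3 over EHF was 15.8 for MCF10A and 3.55 for MCF10AT1. Both carcinoma lines were close together at 2.09 (MCF10DCIS) and 2.06 (MCF10CA1a). MCF10CA1a thus held more EHF than MCF10A with a lower ELF3 level.

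The grainyhead-like factors bind a shared motif at epithelial enhancers and act in barrier formation and wound closure. GRHL1 (chr2:9951693-10002277) was 6.70 TPM in MCF10A, 0.617 TPM in MCF10AT1, 3.83 TPM in MCF10DCIS and 7.72 TPM in MCF10CA1a. MCF10AT1 stood apart with a difference of -2.25 from MCF10A, a ratio of 10.9 between the lines, while MCF10CA1a differed from MCF10A by 0.18. The MCF10AT1 level of GRHL1 was below 1 TPM, and its difference there ran from -3.25 to -2.11 over the scalings and pseudocounts tried. GRHL2 (chr8:101492432-101669726) was 12.3 TPM in MCF10A, 3.64 TPM in MCF10AT1, 4.04 TPM in MCF10DCIS and 6.58 TPM in MCF10CA1a. Unlike GRHL1 it was called lower in MCF10DCIS as well (-1.40, or -1.19 with rescaled TPM), and its levels in MCF10AT1 and MCF10DCIS differed by 0.12. GRHL3 (chr1:24319322-24364482), a factor of terminal differentiation in stratified epithelia, was near the filter throughout, at 1.01, 0.723, 0.596 and 1.17 TPM in the order MCF10A, MCF10AT1, MCF10DCIS and MCF10CA1a. None of its differences reached the rule, and at these levels the pseudocount of 1 shrinks them.

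The make-up of the family shifted between lines. GRHL2 supplied 61.5% of the summed GRHL1, GRHL2 and GRHL3 TPM in MCF10A and 73.1% in MCF10AT1, but 47.7% in MCF10DCIS and 42.5% in MCF10CA1a. GRHL1 supplied 33.4%, 12.4%, 45.2% and 49.9% in the same order. The 2 genes were thus near parity in MCF10DCIS, and GRHL1 was the more abundant in MCF10CA1a alone. The family sum was 20.0 TPM in MCF10A, 4.98 TPM in MCF10AT1, 8.47 TPM in MCF10DCIS and 15.5 TPM in MCF10CA1a.

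OVOL1 (chr11:65787022-65797219) encodes a zinc-finger repressor that opposes EMT and controls the exit of epidermal cells from proliferation. It was 1.93 TPM in MCF10A, 0.300 TPM in MCF10AT1, 0.669 TPM in MCF10DCIS and 1.67 TPM in MCF10CA1a, low in every line. Its difference from MCF10A was -1.17 in MCF10AT1 (-1.76 with rescaled TPM), -0.81 in MCF10DCIS and -0.13 in MCF10CA1a. The rescaled level of OVOL1 in MCF10A was 5.62, so the pseudocount of 1 shrinks the rescaled difference less. With a pseudocount of 0.1 the MCF10DCIS difference became -1.40 and passed the rule. The related gene OVOL2, not a member of the set, was the more abundant of the pair, at 7.47, 1.80, 2.34 and 3.99 TPM in the same order of lines.

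KLF5 (chr13:73054976-73077542), a zinc-finger activator of proliferating basal and luminal epithelium, varied least among the abundant members. It was 33.7 TPM in MCF10A, 24.1 TPM in MCF10AT1, 16.9 TPM in MCF10DCIS and 26.2 TPM in MCF10CA1a. Its differences from MCF10A were -0.47, -0.96 and -0.35 in MCF10AT1, MCF10DCIS and MCF10CA1a, and 20.1%, 16.4% and 29.3% of the tested genes had a difference as low or lower. KLF5 and GRHL3 were the 2 members not called lower in MCF10AT1.

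The splicing regulators ESRP1 and ESRP2 are close paralogs that act on the same exons. ESRP1 (chr8:94641074-94707466) was 54.7 TPM in MCF10A, 14.4 TPM in MCF10AT1, 26.2 TPM in MCF10DCIS and 40.4 TPM in MCF10CA1a. ESRP2 (chr16:68229111-68238102, minus strand) was 34.1 TPM in MCF10A, 13.3 TPM in MCF10AT1, 13.7 TPM in MCF10DCIS and 15.6 TPM in MCF10CA1a. ESRP1 therefore took intermediate levels in the carcinoma lines, whereas the 3 derived lines were alike in ESRP2, which was at most 0.22 log2 units apart among them. From MCF10AT1 to MCF10CA1a, ESRP1 was higher by 1.43, past the rule, and ESRP2 by 0.22.

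ESRP1 made up 61.6% of the summed ESRP TPM of MCF10A, 51.9% for MCF10AT1, 65.7% for MCF10DCIS and 72.1% for MCF10CA1a. The sum itself was 88.8, 27.6, 39.9 and 56.0 TPM in that order. Called differences of ESRP2 against MCF10A were -1.30 in MCF10AT1, -1.25 in MCF10DCIS and -1.08 in MCF10CA1a, of which the last 2 were -0.93 and -0.97 with rescaled TPM and no longer passed. ESRP1 in MCF10DCIS moved in the same way, from -1.04 to -0.69. The table sums all transcripts of a gene, so it holds no measure of the exons that these proteins select.

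**Figure D3:**
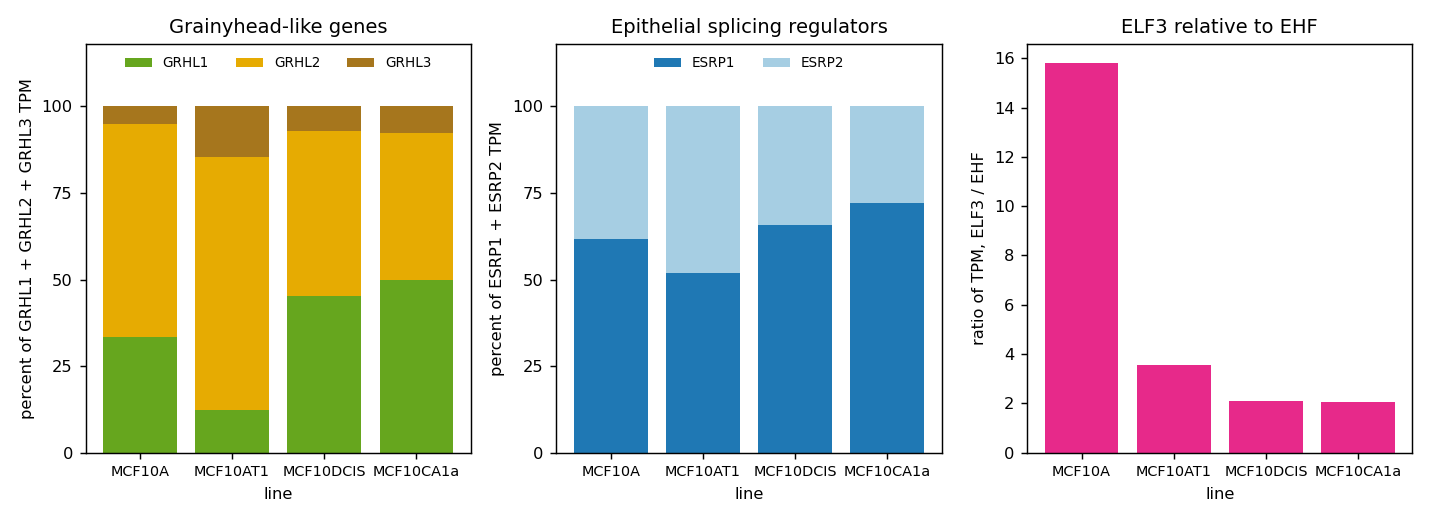
Make-up of 3 gene groups within each line from the authors' mean TPM: stacked bars give each gene's percent of the summed grainyhead-like TPM and of the summed ESRP TPM, and single bars give the ratio of ELF3 to EHF TPM. ESRP1 takes 51.9% in MCF10AT1 and 72.1% in MCF10CA1a, and ELF3 over EHF is 15.8 in MCF10A and at most 3.55 in the derived lines.

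RAB25 (chr1:156061160-156070514) belongs to the RAB11 subfamily of recycling GTPases and is expressed in epithelia. It was 109 TPM in MCF10A, 23.5 TPM in MCF10AT1, 113 TPM in MCF10DCIS and 96.6 TPM in MCF10CA1a. MCF10AT1 alone was low, by -2.17 from MCF10A, and MCF10CA1a differed from MCF10DCIS by -0.22, or -0.45 with rescaled TPM. With rescaled TPM, RAB25 was 0.41 above MCF10A in MCF10DCIS and 0.036 below it in MCF10CA1a, both short of the rule. MCF10DCIS was above MCF10AT1 by 2.21, at or above 99.5% of the tested genes and the greatest difference of a member on this scale. With a pseudocount of 0.1 GRHL1 stood first, at 2.46 against 2.26 for RAB25. RAB25 supplied 40.1% of the summed RAB11A, RAB11B and RAB25 TPM of MCF10A and 17.1% of that of MCF10AT1, while MCF10DCIS (47.9%) and MCF10CA1a (41.7%) were near or above MCF10A.

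Comparisons between the derived lines followed these levels. MCF10DCIS against MCF10AT1 had 3 members higher (EHF by 1.23, GRHL1 by 1.58 and RAB25 by 2.21) and 0 lower, beside 3.23% and 7.51% of the tested genes. The median of the set was 0.51 while that of all tested genes was -0.30. MCF10CA1a against MCF10AT1 had 6 higher (ELF3, EHF, GRHL1, OVOL1, ESRP1 and RAB25) and 0 lower, beside 6% and 3.97%. Here the median of the set was 1.24 and that of all tested genes 0.0. MCF10CA1a against MCF10DCIS had 2 higher, ELF3 by 1.44 and EHF by 1.42, and 0 lower, beside 6.03% and 1.35%, with medians of 0.61 and 0.30. With rescaled TPM 4 members were higher in MCF10DCIS than in MCF10AT1, ESRP1 being the added one, beside 6.61% of the tested genes, and 0 lower beside 7.47%. The other 2 comparisons kept counts of 6 and 2 higher and 0 lower, beside 8.35% and 5.45% in MCF10CA1a against MCF10AT1 and 6.02% and 2.89% against MCF10DCIS.

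Promoter sequences are shown because ZEB and SNAI factors, described further on, bind a known motif, and the stretches that held it are printed for whichever member had one. They include GRHL3, which was not called lower in MCF10AT1. RefSeq start sites on GRCh38.p14 were matched for 6 of 10 members (ELF3, EHF, GRHL1, GRHL3, KLF5 and RAB25), some with more than 1 start, which gave 9 windows of the 250 bases before a start. Each was searched on both strands for 4 motifs. They were CACCTG (the E-box bound by ZEB and SNAI repressors), AACNGGTT (a grainyhead motif), CCGGAA (a form of the ETS motif) and CCACCC (a KLF motif). Shorter or other forms of the ETS motif were not searched for. An E-box was found at 1 start each of ELF3, GRHL3 and RAB25, 3 of 9 windows, beside 17.5% of the 35116 windows of all genes. The KLF motif was found in 4 of 9 windows beside 31.3% of all, and the grainyhead motif and CCGGAA in 0 of 9 beside 1.49% and 14.5%. The E-boxes are printed below with 12 bases on either side and the motif in capitals, all on the plus strand of chromosome 1; the first motif base lay 120 bases before the start in ELF3, 21 in GRHL3 and 41 in RAB25.
ELF3, chr1:202010455-202010484: gaatatgcaaatCACCTGgggccaggagcc
GRHL3, chr1:24319324-24319353: agttaacagctgCACCTGttgaggtatacc
RAB25, chr1:156061107-156061136: catctctccaccCACCTGggccccaggtct

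GRHL1 and RAB25 were both called lower in MCF10AT1, with TPM ratios of 10.9 and 4.65 between MCF10A and that line, and their whole windows are given to show how unlike they are in base composition. The GRHL1 window, on chromosome 2, has 81.6% G and C and none of the 4 motifs. The RAB25 window has 60.4% and holds the E-box and 2 KLF motifs, the first of which shares 1 base with the E-box. Capitals mark these motifs, and both windows are on the plus strand.
GRHL1, chr2:9951443-9951692: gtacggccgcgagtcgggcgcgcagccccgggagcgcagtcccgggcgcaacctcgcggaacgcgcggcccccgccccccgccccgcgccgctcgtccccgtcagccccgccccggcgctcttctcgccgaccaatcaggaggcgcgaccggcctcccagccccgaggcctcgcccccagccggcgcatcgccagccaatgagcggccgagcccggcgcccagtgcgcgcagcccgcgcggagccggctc
RAB25, chr1:156060910-156061159: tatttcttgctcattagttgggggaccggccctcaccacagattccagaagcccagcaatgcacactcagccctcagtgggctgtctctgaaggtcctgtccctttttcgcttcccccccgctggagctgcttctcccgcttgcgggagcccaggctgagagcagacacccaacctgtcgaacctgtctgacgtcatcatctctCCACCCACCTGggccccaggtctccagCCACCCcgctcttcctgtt
A match of letters is not a binding site. In GENCODE release 29 all 250 bases before the RefSeq start of ELF3 lie in annotated exons, as do 35 of the 250 before the GRHL3 start.

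Genes known as partners or targets of these regulators were lower in the same line. Of 26 such epithelial genes, listed with earlier results of these data known, 22 were lower and 0 higher in MCF10AT1 against MCF10A. Their median was -1.92, beside -0.066 for all tested genes, of which 5.87% were lower and 3.39% higher. The tight junction scaffold gene TJP3 was 11.01 TPM in MCF10A against 0.255 TPM in MCF10AT1, the membrane protease gene PRSS8 75.9 and 4.98 TPM, and the claudin gene CLDN7 181 and 25.6 TPM. In MCF10DCIS 13 were lower, or 9 with rescaled TPM, and 2 higher, with a median of -0.97 beside -0.38 for all tested genes. Of all tested genes 14.8% were lower there, or 10.4% with rescaled TPM, and 3.56% higher. RAB11FIP1, which encodes an effector bound by RAB25, stood at 20.3 TPM in MCF10A against 4.05 TPM in MCF10DCIS, and MAL2, which encodes a protein of apical transport, at 156 against 26.4 TPM. In MCF10CA1a 7 were lower and 1 higher (median -0.43), beside 7.14% and 5.97% of all tested genes (median -0.074). The higher gene was the claudin gene CLDN1, at 10.0 TPM in MCF10A and 51.6 TPM in MCF10CA1a. Among the 7 lower were PRSS8, at 75.9 against 18.6 TPM, and MAL2, at 156 against 42.0 TPM. With rescaled TPM 6 were lower and 2 higher in MCF10CA1a, beside 7.79% and 9.45% of all tested genes.

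Relatives of the members outside the set had medians of -0.27 in MCF10AT1, -0.81 in MCF10DCIS and -0.44 in MCF10CA1a, beside -1.69, -0.89 and -0.27 for the set itself. All tested genes had medians of -0.066, -0.38 and -0.074 in that order of lines. Of the 19 relatives 16 were tested, and 2 were lower in MCF10AT1, OVOL2 (-1.60) and the GTPase gene RAB17 (-1.07). In MCF10DCIS 3 were lower (KLF4 by -2.04, ELF1 by -1.37 and OVOL2 by -1.34) and in MCF10CA1a 2 (TFCP2L1 by -3.44 and KLF4 by -1.14). None was higher in the 3 comparisons. The shares of all tested genes were 5.87%, 14.8% and 7.14% lower and 3.39%, 3.56% and 5.97% higher in MCF10AT1, MCF10DCIS and MCF10CA1a. TFCP2L1, a more distant member of the grainyhead superfamily, was 51.7, 30.5, 68.2 and 3.86 TPM in MCF10A, MCF10AT1, MCF10DCIS and MCF10CA1a, so it was low in the metastatic line, where GRHL1 was highest. The ETS genes ELF5 and SPDEF stayed below 1 TPM in every line.

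Splicing regulators of other families were also read. Of 11 tested, 1 was lower in MCF10AT1 and 0 higher: RBM47, an epithelial RNA-binding protein gene, at 8.36 TPM in MCF10A, 2.34 TPM in MCF10AT1, 3.49 TPM in MCF10DCIS and 9.32 TPM in MCF10CA1a. In MCF10DCIS 4 were lower with deposited TPM: MBNL2 (-1.19), RBFOX2 (-1.17), RBM47 (-1.06) and MBNL3 (-1.05). None of the 4 passed with rescaled TPM, as was the case for ESRP1 and ESRP2 in that line, and in MCF10CA1a 0 were lower. As background, 5.87%, 14.8% and 7.14% of all tested genes were lower in MCF10AT1, MCF10DCIS and MCF10CA1a, with medians of -0.066, -0.38 and -0.074. Of 12 tested genes with exons known to be selected by ESRPs, the member GRHL1 left out, 2 were lower in MCF10AT1 (SCRIB by -1.06 and OSBPL3 by -1.04, neither with rescaled TPM) and 0 higher, with a median of 0.0068. FGFR2 stayed below 1 TPM in all lines, and CD44 was 165, 222, 203 and 313 TPM in MCF10A, MCF10AT1, MCF10DCIS and MCF10CA1a.

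EMT transcription factor genes ran the other way in MCF10AT1. Of 8 tested, 5 were higher there than in MCF10A and 0 lower, beside 3.39% and 5.87% of all tested genes. Their median was 1.26, beside -0.066 for all tested genes. SNAI2 stood at 2.92 TPM in MCF10A against 14.1 TPM in MCF10AT1, ZEB2 1.34 and 7.70 TPM, and TWIST2 2.22 and 8.76 TPM. The summed level of the 9 listed genes was 30.9 TPM in MCF10A, 65.6 TPM in MCF10AT1, 15.1 TPM in MCF10DCIS and 9.75 TPM in MCF10CA1a. TWIST1 made up most of the sum in MCF10A, at 19.6 TPM. In MCF10DCIS and MCF10CA1a 3 each were lower and 0 higher with deposited TPM, beside 14.8% and 7.14% of all tested genes lower. With rescaled TPM 3 were lower and 1 higher in MCF10DCIS, beside 10.4% and 7.83% of all tested genes. The higher gene was SNAI2, by 1.31. In MCF10CA1a 4 were lower and 0 higher with rescaled TPM, beside 7.79% and 9.45%. SNAI2 was 5.98 TPM in MCF10DCIS and 3.92 TPM in MCF10CA1a, above MCF10A in both, while ZEB2 was at 0.111 and 0.0264 TPM and TWIST1 at 4.45 and 2.73 TPM.

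**Figure D4:**
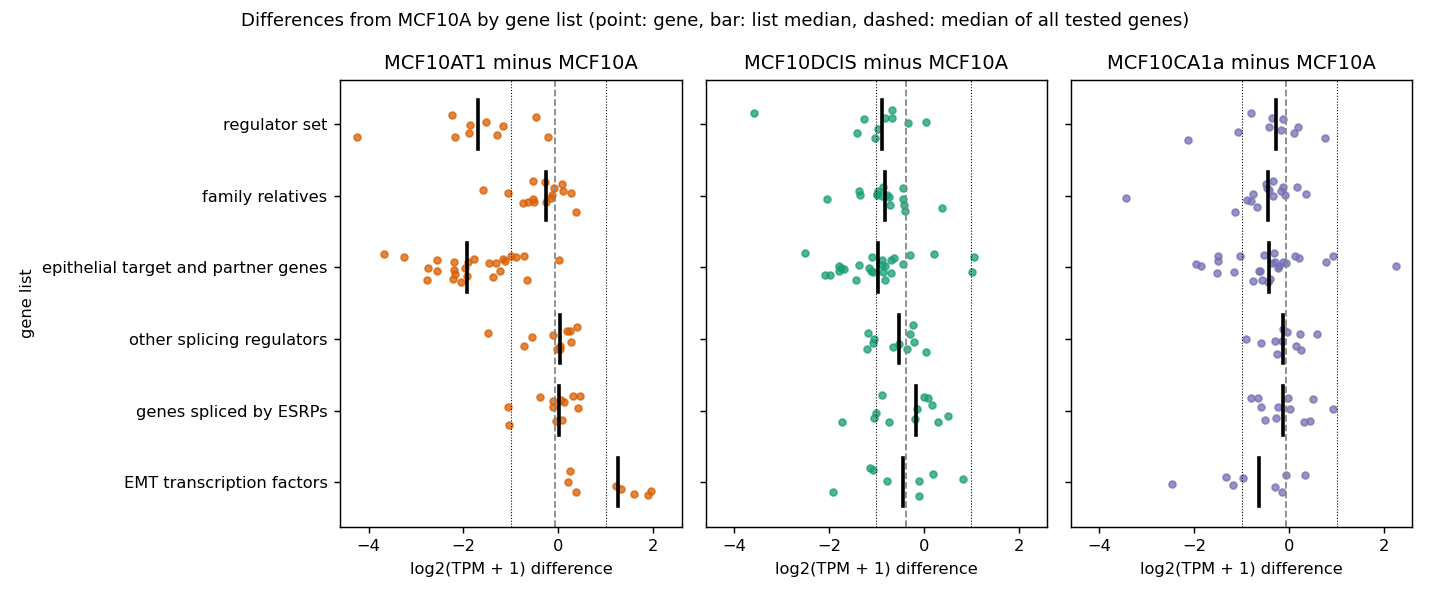
Differences from MCF10A of the regulator set and of 5 other gene lists on the log2(TPM + 1) scale, one panel per derived line; points are tested genes, thick bars list medians, the dashed line the median of all tested genes and dotted lines a size of 1. In MCF10AT1 the medians of the regulator set and of the epithelial genes are -1.69 and -1.92 and that of the EMT factors is 1.26.

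Of the members, 3 lie on chromosomes whose genes were low as a whole: GRHL2 and ESRP1 on chromosome 8 and ESRP2 on chromosome 16. The tested genes of chromosome 8 had a median difference from MCF10A of -0.54 in MCF10AT1, -0.89 in MCF10DCIS and -0.57 in MCF10CA1a, and those of chromosome 16 -0.50, -0.86 and -0.59. Of the genes within 2 Mb of ESRP1, 18 were tested, with medians of -0.51, -1.01 and -0.63 in that order of lines. ESRP1 itself differed by -1.86, -1.04 and -0.43, so that in MCF10DCIS it lay beside its neighbours, 9 of 18 being as low or lower, and in MCF10AT1 0 of 18 were.

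GRHL2 stood below the 17 tested genes around it in each line, by -1.52, -1.40 and -0.81 beside medians of -0.59, -0.80 and -0.43, with 0, 2 and 1 of them as low or lower. ESRP2 differed by -1.30, -1.25 and -1.08 beside medians of -0.39, -0.87 and -0.66 for 84 neighbours, of which 5, 17 and 9 were as low or lower. For ELF3, none of the 33 tested neighbours was as low in any derived line, and their medians were -0.031, 0.081 and 0.0043. RAB25, EHF and GRHL1 likewise had neighbours with medians between -0.062 and 0.063 in MCF10AT1. In MCF10CA1a the 20 tested neighbours of GRHL1 had a median of 0.50, and GRHL1 itself differed by 0.18, with 6 of them as low or lower. MAL2, RAB11FIP1 and SCRIB, named above, are also on chromosome 8. The table holds no DNA copy number, and its part in these differences was not tested.

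**Figure D5:**
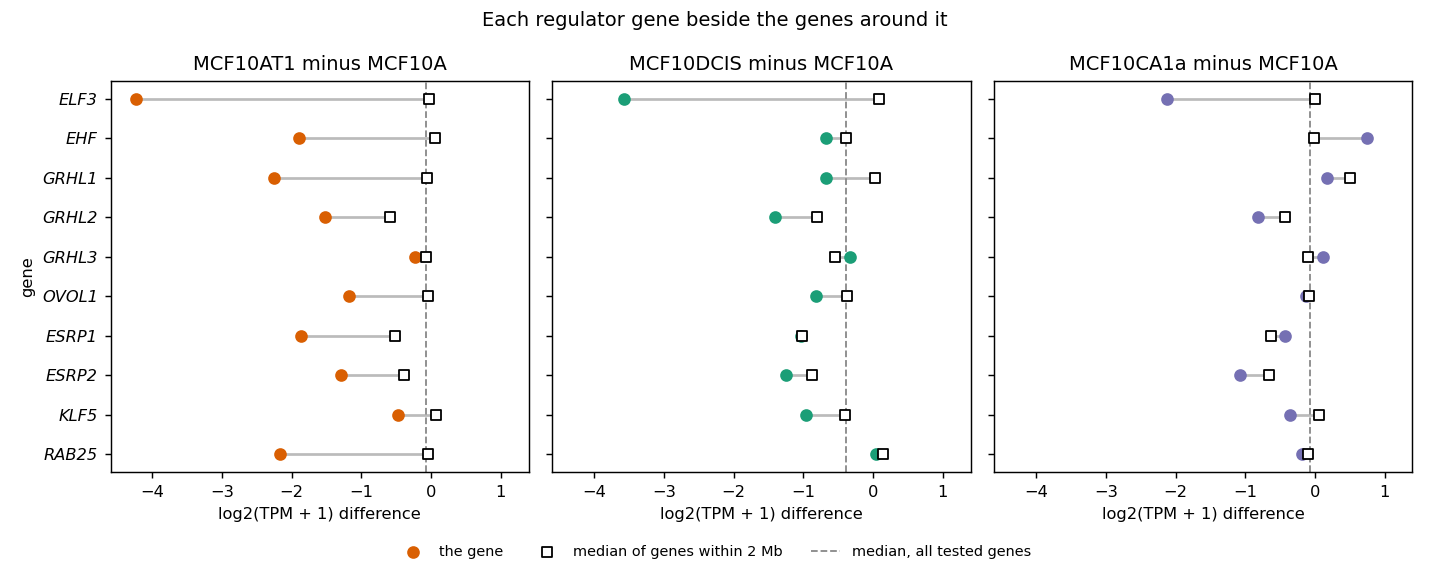
Difference from MCF10A of each regulator gene (filled circle) and median difference of the tested genes whose starts lie within 2 Mb of its own (open square), one panel per derived line, on the log2(TPM + 1) scale; the dashed line is the median of all tested genes. In MCF10DCIS the circle and square of ESRP1 coincide at -1.04 and -1.01, while ELF3 lies at -3.57 beside neighbours at 0.081.

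Among the 4025 tested non-member genes that ranged over at least 1 log2 unit, the 5 whose profile over the 4 lines, centred on its mean, lay nearest to the mean profile of the set were DBNDD1, MROH6, ACSF2, the cell adhesion gene NECTIN4 and the MAP kinase phosphatase gene DUSP16, at Euclidean distances of 0.054 to 0.16 log2 units. DBNDD1 was 15.5, 3.99, 6.80 and 10.9 TPM in MCF10A, MCF10AT1, MCF10DCIS and MCF10CA1a. Nearest to ELF3 were the kallikrein protease genes KLK6 (0.44) and KLK5 (0.56) and TMEM139 (0.59). KLK6 was 108, 3.62, 6.88 and 28.7 TPM in the same order. Within the set, ESRP1 lay nearest to the mean of the other members (0.15) and ELF3 farthest (2.28), followed by RAB25 (1.27). With 4 lines these distances describe the table and carry no test.

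Some members overlap other genes, and the strand setting of the counting is not given in the sources used here, so reads of antisense partners may be shared. ELF3-AS1, on the opposite strand of ELF3, was 1.76 TPM in MCF10A and at most 0.154 TPM in the derived lines. OVOL1-AS1 was at most 0.463 TPM. The protein-coding neighbours STPG1, across GRHL3, and NFATC3, across ESRP2, lay between 2.93 and 3.91 TPM and between 3.58 and 7.41 TPM, so STPG1 was above GRHL3 in each line. On the same strand, AC020978.5 overlaps ESRP2 and was 4.10 TPM in MCF10A and 1.85 to 1.99 TPM in the derived lines, and the pseudogene AC108860.1 within ESRP1 was at most 1.38 TPM.

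Of the series as a whole, the RNA classes left out of rescaled TPM held 65.6% to 73.4% of the TPM, most in MCF10DCIS. HRAS was 50.8 TPM in MCF10A and between 126 and 312 TPM in the derived lines, and the table does not separate the introduced gene from the resident one. The lines carried the epithelial keratins KRT8 (393 to 942 TPM) and KRT18 (523 to 977 TPM), while other keratins varied more. In the order MCF10A, MCF10AT1, MCF10DCIS and MCF10CA1a, KRT19 was 5.76, 0.419, 0.688 and 0.616 TPM and KRT14 57.8, 24.6, 6.62 and 4.75 TPM. KRT5 was 768, 592, 643 and 126 TPM in that order, and KRT17 459, 227, 971 and 1046 TPM. Mesenchymal genes were higher in MCF10AT1, with 7 of 9 tested higher than in MCF10A and 0 lower, beside 3.39% and 5.87% of all tested genes. In MCF10DCIS 3 of 9 were higher and 1 lower, beside 3.56% and 14.8%, and in MCF10CA1a 3 and 0, beside 5.97% and 7.14%. The summed level of the 12 listed genes was 21.4 TPM in MCF10A, 1049.7 TPM in MCF10AT1, 321 TPM in MCF10DCIS and 119 TPM in MCF10CA1a. Among them, DCN was 0.163 TPM in MCF10A against 134 TPM in MCF10AT1, VIM 4.56 and 516 TPM, and FN1 5.03 and 303 TPM. Of 8 fibroblast markers, 3 reached 1 TPM in MCF10AT1 and 2 in MCF10A, and their summed level was 13.1 and 17.3 TPM in these lines. FAP made up most of both sums, at 7.85 TPM in MCF10AT1 against 15.8 TPM in MCF10A, while the other 7 markers were above MCF10A in MCF10AT1, POSTN by 1.84 (3.22 against 0.182 TPM) and COL6A3 by 0.28. The part of other cell types in the members' levels was not tested. PDGFRA, THY1 and LUM were at most 0.058 TPM in every line. Of 6 leukocyte markers 1 reached 1 TPM in each line, CD68, at 2.87 to 6.41 TPM, and PTPRC was at most 0.013 TPM. Of 6 endothelial markers 1 reached 1 TPM in MCF10A, PECAM1, at 3.79 TPM. It was 0.866 TPM in MCF10AT1, 2.05 TPM in MCF10DCIS and 1.54 TPM in MCF10CA1a.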

How the data were processed

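The authors deposited 1 table of TPM, with a column for each line that is named as a mean, per the file headers. The submitters' processing notes name STAR, edgeR and the hg38 build. Which versions, quantifier, annotation and strand option were used is not given in the sources used here. All 4 value columns were matched to lines by name.

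Differences of log2(TPM + 1) were computed over genes reaching 1 TPM in any line, for all 6 pairs of lines (Python 3.11.15, pandas 2.3.3, numpy 2.4.6). The members and lists were chosen with earlier results of these data known. Every member is named. Of each other list, the 3 largest differences past the rule could be named if the gene had 5 TPM or more in 1 of the lines compared, as could the 5 profiles nearest to the set and the 3 nearest to ELF3. Other genes named as background or to check the lines were chosen after their values were seen. Positions came from GENCODE release 29 for 54529 symbols. A limma fit needs values per library and was not run. Protein identity was not computed, because no protein sequences were used here.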

Additional observations from a re-analysis of the deposited data

How the results depend on the processing

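The counts of members called against MCF10A were kept within 1.5 times in MCF10AT1 under all 7 alternatives run (pseudocount 0.1, no filter, rescaled TPM, quantile normalization, a size of 0.58, median-of-ratios scaling, and a filter of 5 TPM). In MCF10DCIS the 4 lower members became 1 with quantile normalization, 2 with median-of-ratios scaling or rescaled TPM, and 8 with a size of 0.58. In MCF10CA1a the 2 lower members became 1 with quantile normalization, median-of-ratios scaling or rescaled TPM, and with a size of 0.58 the number higher went from 0 to 1. The 3 higher members of MCF10DCIS against MCF10AT1 became 5 with median-of-ratios scaling or a size of 0.58, and the 2 of MCF10CA1a against MCF10DCIS became 7 with a size of 0.58. The smaller size calls more genes by construction, and the share of all tested genes that it calls was not computed. In MCF10DCIS against MCF10A the lower quartile of all tested genes was -0.76, already past 0.58. In MCF10CA1a against MCF10DCIS their upper quartile was 0.54, just short of it. Shares under quantile normalization and median-of-ratios scaling were not computed either. For the scalings the cause was not tested beyond the shift of the all-gene median. No call changed sign. Of 60 differences of single members, 58 kept their sign under 4 alternatives, the exceptions being GRHL3 between MCF10DCIS and MCF10AT1 (-0.24 to 0.038) and ESRP2 between MCF10CA1a and MCF10DCIS (-0.17 to 0.19). Neighbour medians stayed under a size of 1 or over it alike with a window of 5 Mb. No paired analysis was possible because the columns are means over libraries, and leaving out single libraries was not run for the same reason. Without read counts, the depth behind the low values of GRHL3 and OVOL1, and of GRHL1 in MCF10AT1, cannot be judged.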
